A study of Homo sapiens with 6 samples.

Results

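Heat shock proteins and their co-chaperones were followed through 6 human prostate cancer cell lines, as 37 listed cytosolic and mitochondrial genes out of 60658 gene identifiers in the deposited tables. The members were chosen by name, 36 matched by current symbol and HSPB11 (ENSG00000081870) by its older name, since the symbol table lists it as IFT25. All 37 reached 1 FPKM in at least 1 library and were therefore measured. FPKM scales the fragments assigned to a gene by its transcript length and by the size of the library, so levels of different genes can be set side by side.

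The DU145 lineage holds CTXR, DTXR and the parental line DU145, which needs no androgen to grow. The C4-2B lineage holds CabR, TaxR and the parental line C4-2B, which descends from LNCaP. DTXR and TaxR are docetaxel-resistant lines kept under 5 nM docetaxel, and CTXR and CabR are the cabazitaxel-resistant lines derived from them and kept under 5 nM cabazitaxel. Both drugs belong to the taxanes, which stabilise microtubules. The cells of all 6 lines were untreated before harvest, and the parental lines carry no selection in the labels. Whether a resistant line is 1 clone is not given in the sources used here.

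Molecular chaperones of the HSP70 family bind unfolded segments of client proteins in a cycle driven by ATP. J-domain (DNAJ) proteins deliver clients and stimulate the ATPase, while HSP110 and BAG proteins exchange the nucleotide. HSP90 proteins act later on kinases and steroid hormone receptors. Small heat shock proteins hold unfolding proteins without ATP. Transcription of the heat-inducible members is driven by heat shock factors, HSF1 above all, which bind heat shock elements built from alternating GAA and TTC units. In this text 18 members are called heat-inducible and 17 constitutive or tissue-restricted, from general knowledge, and HSF1 and HSF2 are the transcription factors. These classes were set with earlier results of these data known.

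With 1 library for each line, differences between lines lack a replicate check and are given with no p-value. The words higher and lower are kept for a log2 ratio of (FPKM + 1) of 1 or more in size, and adding 1 shrinks the ratios of genes at low FPKM. Across the 17436 genes that reached 1 FPKM in at least 1 library, the median log2 ratio was between -0.0021 and 0 in the 6 comparisons. Read depth is unknown, and library totals ran from 711766 to 818430 FPKM. Mitochondrial genes held 35.3% to 40.7% of the total in the DU145 lineage and 17.9% to 27.9% in the C4-2B lineage. Lineage markers matched the labels, with KLK3, which encodes prostate-specific antigen, at 0 to 0.301 FPKM in the DU145 lineage and 841 to 3567 in the C4-2B lineage. Leukocyte markers stayed under 0.52 FPKM in every library. TaxR held low levels of DU145-side transcripts, at a median of 1.73% of their DU145 level over 10 markers.

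The upstream sequences of members that passed the size rule in a subline are shown first, because the heat-inducible ones among them have heat shock element letters before at least 1 listed start site. Each line gives the 250 bases before the RefSeq start site (GRCh38.p14), 5′ to 3′ on the gene's strand, and capitals mark GAANNTTC or TTCNNGAA matches. Both motifs read the same on either strand, and matches may overlap. HSPA2 and HSPA9, the other members past the rule, held no match in this window and are not printed. The other 2 listed start sites of DNAJB1 held no match either.
HSPA6, chr1:161524290-161524539, plus strand: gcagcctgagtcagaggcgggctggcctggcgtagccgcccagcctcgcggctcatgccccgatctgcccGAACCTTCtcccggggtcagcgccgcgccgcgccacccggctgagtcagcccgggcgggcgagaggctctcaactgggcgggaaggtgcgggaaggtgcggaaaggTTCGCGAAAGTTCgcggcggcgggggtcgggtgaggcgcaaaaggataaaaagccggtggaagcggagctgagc
HSPA1A, chr6:31815293-31815542, plus strand: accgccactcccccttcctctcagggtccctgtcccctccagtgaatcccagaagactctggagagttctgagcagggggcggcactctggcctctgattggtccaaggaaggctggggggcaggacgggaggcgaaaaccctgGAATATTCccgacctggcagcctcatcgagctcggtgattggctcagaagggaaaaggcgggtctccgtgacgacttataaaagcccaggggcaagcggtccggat
HSPA1B, chr6:31827488-31827737, plus strand: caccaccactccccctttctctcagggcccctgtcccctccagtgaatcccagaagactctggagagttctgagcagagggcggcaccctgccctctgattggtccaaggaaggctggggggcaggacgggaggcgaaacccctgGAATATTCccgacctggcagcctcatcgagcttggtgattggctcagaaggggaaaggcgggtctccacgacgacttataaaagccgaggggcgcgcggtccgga
HSPB8, chr12:119178681-119178930, plus strand: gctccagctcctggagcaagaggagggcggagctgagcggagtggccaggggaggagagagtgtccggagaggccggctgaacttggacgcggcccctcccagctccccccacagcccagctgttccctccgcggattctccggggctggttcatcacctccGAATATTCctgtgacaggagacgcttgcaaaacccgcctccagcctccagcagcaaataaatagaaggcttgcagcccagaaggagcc
HSPB1, chr7:76302423-76302672, plus strand: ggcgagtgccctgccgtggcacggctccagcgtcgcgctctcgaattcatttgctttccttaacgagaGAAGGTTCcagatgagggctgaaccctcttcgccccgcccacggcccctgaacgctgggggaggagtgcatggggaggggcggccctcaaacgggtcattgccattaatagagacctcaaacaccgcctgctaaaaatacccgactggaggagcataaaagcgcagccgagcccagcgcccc
DNAJB1, chr19:14518398-14518647, minus strand, 1 of its 3 listed start sites: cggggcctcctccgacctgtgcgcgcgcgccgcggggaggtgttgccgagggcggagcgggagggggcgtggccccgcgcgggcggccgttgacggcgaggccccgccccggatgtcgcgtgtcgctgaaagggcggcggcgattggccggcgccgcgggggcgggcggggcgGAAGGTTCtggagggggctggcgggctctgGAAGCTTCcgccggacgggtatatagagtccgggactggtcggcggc
HSPA6 holds 3 matches, 2 of which overlap into the 3-unit element TTCNNGAANNTTC beginning 74 bases before the start. HSPA1A, HSPA1B and HSPB8 share the letters GAATATTC, beginning 106, 105 and 88 bases before their starts. At least 1 of these 2-unit matches, before any listed start site of the gene, was found for 13 of the 17 heat-inducible members with a promoter in the table, and for 4 of 16 constitutive or tissue-restricted members. The share among all 27305 genes with a listed promoter was 14.0%, and the 3-unit form (either GAANNTTCNNGAA or its reverse complement) occurred in 0.557% of them. The 3-unit form was present in 4 heat-inducible members, HSPA6, CHORDC1, HSPD1 and HSP90AA1. It was also present in 3 constitutive or tissue-restricted members, HSPA8, HSP90AB1 and DNAJB6. Of these members only HSPA6 passed the size rule in a subline against its parent, so the letters do not set the called members apart. A match is a description of the letters and not a binding site.

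HSPA6 was lower than in the parent in all 4 resistant sublines, and it was the single member for which that held. HSPA6 (ENSG00000173110, chromosome 1, 161524540 to 161526910, plus strand, GRCh38) encodes HSP70B′, an HSP70 that is nearly silent without stress and strictly stress-inducible. It had 1.31 FPKM in CTXR and 0.383 in DTXR, against 8.41 in DU145. In the other lineage it had 0.469 FPKM in CabR and 0.619 in TaxR, against 6.80 in C4-2B. Both parental libraries thus stood above all 4 subline libraries. The log2 ratios were -2.03 in CTXR, -2.77 in DTXR, -2.41 in CabR and -2.27 in TaxR. The size rule called 21 of the 17436 measured genes lower in all 4 sublines, or 0.12%. CTXR and DTXR are set against the same DU145 library, and CabR and TaxR against the same C4-2B library. Of the 75-base windows of HSPA6 transcripts 35.0% also occur in its pseudogene HSPA7, which was listed at 0.112 FPKM or less in every library.

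HSPA1A and HSPA1B encode the major stress-inducible HSP70 and lie next to each other in the MHC class III region of chromosome 6. Their transcripts share 69.3% and 73.2% of 75-base windows with other genes, most often with each other, so the division of reads between them is uncertain and their sum is the safer value. The sum of both was 12.9 FPKM in CTXR and 5.76 in DTXR, against 39.8 in DU145. It was 29.1 FPKM in CabR and 50.7 in TaxR, against 54.1 in C4-2B. The summed log2 ratio was -1.56 in CTXR, -2.59 in DTXR, -0.88 in CabR and -0.09 in TaxR, so the size rule was passed in the DU145 lineage and not in the C4-2B lineage. CTXR stood above DTXR, at a log2 ratio of 1.04, or 0.96 with HSPA1L added to the sum. By itself HSPA1B (ENSG00000204388) had 8.73 FPKM in CTXR and 4.24 in DTXR, against 33.2 in DU145, and 28.9 in CabR and 50.3 in TaxR, against 53.6 in C4-2B. HSPA1A (ENSG00000204389) had 4.16 FPKM in CTXR and 1.52 in DTXR, against 6.63 in DU145, and 0.169 in CabR and 0.423 in TaxR, against 0.494 in C4-2B. The log2 ratio of HSPA1B was -1.81 in CTXR and -2.70 in DTXR, and that of HSPA1A was -0.57 in CTXR and -1.60 in DTXR. HSPA1B held 67.7% to 83.3% of the sum in the DU145 lineage and 99.1% to 99.4% in the C4-2B lineage. The testis-enriched neighbour HSPA1L stayed between 0.667 and 1.03 FPKM in the 6 libraries.

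The small heat shock proteins differed in direction. HSPB8 (ENSG00000152137), which works with BAG3 in the removal of misfolded proteins by autophagy, was listed at 0 in CTXR and in DTXR, against 7.55 FPKM in DU145. A listed 0 may stand for an estimate that failed, and 11 genes in all were listed at 0 in both sublines with at least 5 FPKM in DU145, of which 2 are protein-coding. In the C4-2B lineage HSPB8 had 1.20 FPKM in CabR and 0.576 in TaxR, against 1.86 in C4-2B, and no ratio there passed the size rule. With both sublines at 0, its log2 ratio of (FPKM + 1) was -3.10 in CTXR and in DTXR.

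HSPB1 (ENSG00000106211, chromosome 7), which encodes HSP27, was the member with the widest difference between CTXR and DTXR. It had 446 FPKM in CTXR and 64.0 in DTXR, against 106 in DU145. CTXR was higher than DU145 (log2 ratio 2.06) and higher than DTXR (2.78), while DTXR stood at -0.72 from DU145. HSPB1 was among the most abundant members in the C4-2B lineage, with 799 FPKM in CabR and 897 in TaxR, against 1139 in C4-2B. Those ratios were -0.51 and -0.34, not past the size rule. HSPB1 made up 15.0% of the summed FPKM of all 37 members in CTXR and 2.12% in DTXR, against 4.09% in DU145. The remaining small heat shock members did not pass the rule in any subline against its parent. CRYAB, alpha-B-crystallin, had 0.743 FPKM in CTXR and was listed at 0 in DTXR, against 0.827 in DU145, and had 9.76 in CabR and 4.99 in TaxR, against 8.80 in C4-2B. HSPB11, an intraflagellar transport protein despite its name, lay between 16.5 and 59.4 FPKM.

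**Figure D1:**
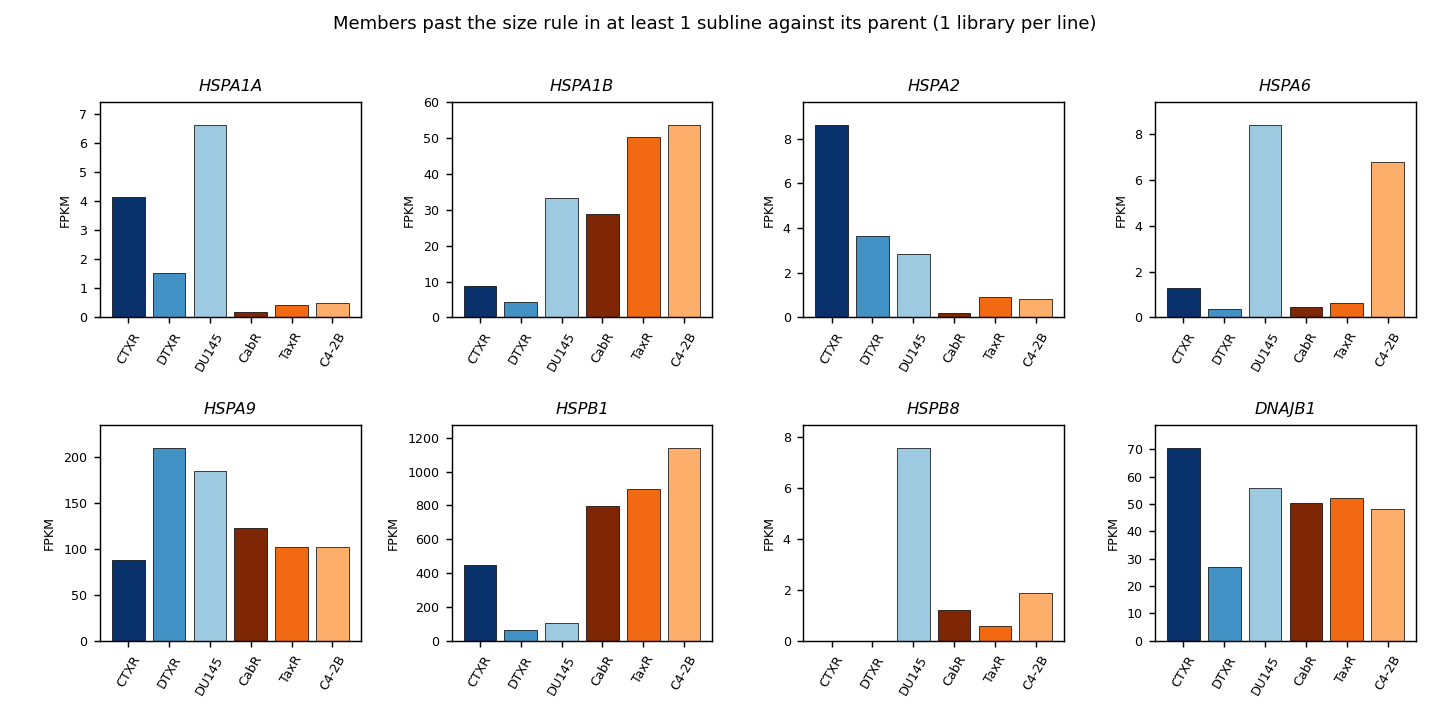
FPKM (vertical axes, linear, from 0) of the 8 members past the size rule in at least 1 subline against its parent, 1 bar per library and 1 library per line, with the DU145 lineage in blue and the C4-2B lineage in orange. HSPA6 is low in all 4 sublines, HSPB8 is at 0 in CTXR and DTXR, and HSPB1 reaches 446 FPKM in CTXR against 106 in DU145.

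In DTXR against DU145, 5 of the 37 members were lower and none higher. They were HSPB8, HSPA6, HSPA1B, HSPA1A and DNAJB1, all of the heat-inducible class, so that 5 of 18 heat-inducible and 0 of 17 constitutive or tissue-restricted members were lower. HSPA1A and HSPA1B share most of their sequence windows, and with these and HSPA1L summed into 1 value the count was 4. The size rule called 5.1% of all measured genes lower and 5.37% higher in this comparison, against 13.5% and 0% of the members. DNAJB1 (ENSG00000132002), HSP40, the main J-domain partner of inducible HSP70, had 27.1 FPKM in DTXR against 55.7 in DU145. Its log2 ratio of -1.01 was just past the rule. In the C4-2B lineage DNAJB1 had 50.3 FPKM in CabR and 52.3 in TaxR, against 48.2 in C4-2B. The median log2 ratio was -0.37 over the heat-inducible members and 0.18 over the constitutive or tissue-restricted ones, beside 0 over all measured genes. These values describe a pair of libraries, and the classes were set with earlier results of these data known, so the contrast of classes is no test.

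In CTXR against DU145, 4 members were lower and 2 higher. Those lower were HSPB8, HSPA6 and HSPA1B of the heat-inducible class, and HSPA9. The share of members lower was 10.8%, beside 5.47% of all measured genes, and the share higher was 5.41%, beside 7.45%. HSPA9 (ENSG00000113013), mortalin, is the HSP70 of the mitochondrial matrix. It had 87.4 FPKM in CTXR and 209 in DTXR, against 185 in DU145, and 123 in CabR and 102.2 in TaxR, against 101.8 in C4-2B. HSPA2 (ENSG00000126803), an HSP70 best known from the testis, was higher than in DU145 along with HSPB1. It had 8.62 FPKM in CTXR and 3.66 in DTXR, against 2.86 in DU145, and 0.215 in CabR and 0.894 in TaxR, against 0.803 in C4-2B. The medians of the heat-inducible and of the constitutive or tissue-restricted members were -0.13 and -0.12, beside 0 over all measured genes.

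In the step within the DU145 lineage, CTXR against DTXR, 5 members were higher and 1 lower. HSPB1, DNAJB1, DNAJB4 and HSPA1A of the heat-inducible class and HSPA2 were higher, and HSPA9 was lower. The size rule called 7.29% of all measured genes higher and 5.25% lower, against 13.5% and 2.70% of the members. DNAJB1 had 70.4 FPKM in CTXR against 27.1 in DTXR, and DNAJB4, a related J-domain protein, 26.6 against 11.9. The HSPA1A and HSPA2 ratios of 1.03 and 1.04 lay close to the threshold. With the libraries set to the same non-mitochondrial total they were 0.97 and 0.96, and the count was 3. With HSPA1A, HSPA1B and HSPA1L summed the count was 4. With a pseudocount of 0.1 it was 8, with HSPA1B, HSPA6 and CRYAB added. Shares of all measured genes were not computed for these alternative settings.

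In the C4-2B lineage, HSPA6 was the single member past the size rule in CabR against C4-2B and in TaxR against C4-2B, and it was lower in each. That is 2.70% of the members, beside 6.2% of all measured genes lower in CabR and 5.64% in TaxR. No member was higher, beside 2.67% of all measured genes in CabR and 2.52% in TaxR. Member medians were 0.06 in CabR and 0.07 in TaxR. In CabR against TaxR no member passed the rule, beside 1.75% of all measured genes higher and 1.84% lower. The highest ratios short of the rule were 0.86 for HSPA12A in CabR and 0.76 for HSPA8 in TaxR, and the lowest of the other members were -0.87 for HSPA1B in CabR and -0.86 for HSPB8 in TaxR. A pseudocount of 0.1 weights low values more. With it HSPA12A was called higher and HSPA1A and HSPA2 lower in CabR, and DNAJA4 higher and HSPB8 lower in TaxR. The share of all measured genes called with that pseudocount was not computed.

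**Figure D2:**
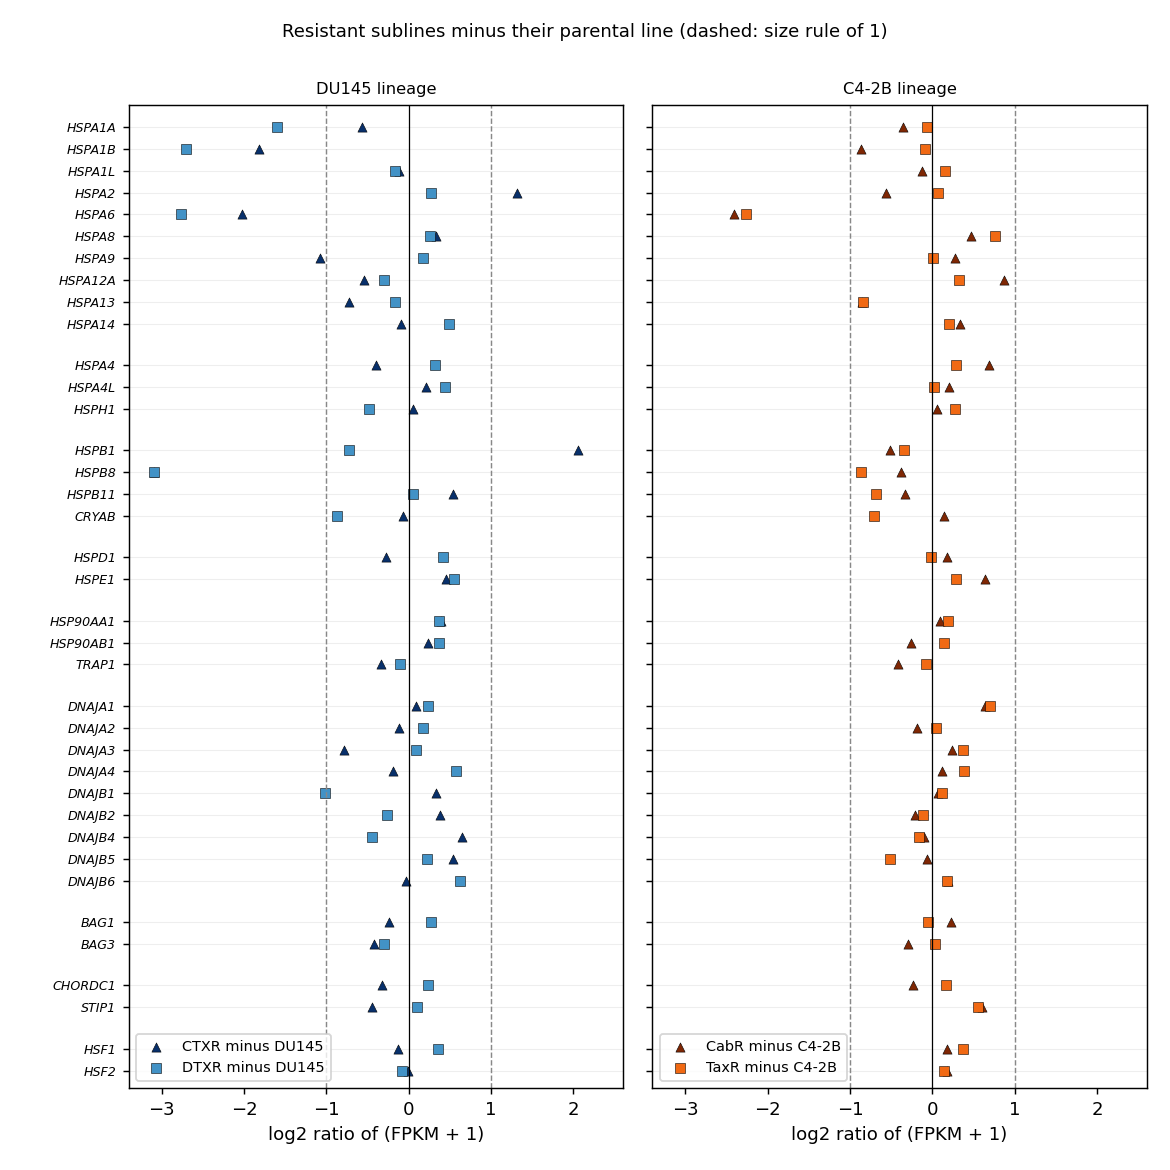
Log2 ratio of (FPKM + 1) of each resistant subline minus its parental line for the 37 members, grouped by role, with the DU145 lineage on the left and the C4-2B lineage on the right; dashed lines mark the size rule of 1. HSPA6 lies past -1 in all 4 sublines, and the other points past the rule all belong to CTXR or DTXR.

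The most abundant members were HSP90AB1, HSPB1, HSP90AA1, HSPA8 and HSPD1, which together held 57.1% to 72.3% of the members' summed FPKM in each library. HSP90AB1, the constitutive cytosolic HSP90, had 954 FPKM in CTXR and 1043 in DTXR, against 809 in DU145, and 650.4 in CabR and 864 in TaxR, against 781 in C4-2B. HSP90AA1, its stress-inducible paralog, had 372 FPKM in CTXR and 364 in DTXR, against 283 in DU145, and 632 in CabR and 677 in TaxR, against 594 in C4-2B. Neither passed the size rule in any subline. The HSP90AA1 level was 0.349 to 0.390 times that of HSP90AB1 in the DU145 lineage and 0.760 to 0.972 times in the C4-2B lineage. TRAP1, the mitochondrial HSP90, ranged from 55.2 to 108 FPKM.

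HSPA8, the constitutive HSC70, had 125 FPKM in CTXR and 119 in DTXR, against 98.9 in DU145, and 657 in CabR and 808 in TaxR, against 476 in C4-2B. All 4 sublines were thus above their parent, by log2 ratios of 0.26 to 0.76, none past the rule. HSPD1 and HSPE1, the HSP60 chaperonin and its HSP10 lid, did not pass it either. HSPD1 had 153 FPKM in CTXR and 247 in DTXR, against 185 in DU145, and 561 in CabR and 490.3 in TaxR, against 497 in C4-2B. HSPE1 had 104 FPKM in CTXR and 111 in DTXR, against 75.6 in DU145, and 350.0 in CabR and 274 in TaxR, against 225 in C4-2B.

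Neither transcription factor passed the size rule along either lineage. HSF1, the master regulator of the heat shock response, had 57.9 FPKM in CTXR and 81.5 in DTXR, against 63.6 in DU145, and 53.1 in CabR and 61.1 in TaxR, against 46.9 in C4-2B. HSF2 had 8.55 FPKM in CTXR and 8.04 in DTXR, against 8.59 in DU145, and 8.22 in CabR and 8.03 in TaxR, against 7.18 in C4-2B. The ratios of both genes to the parent lay between -0.14 and 0.37. These are RNA levels, and HSF1 is regulated mainly at the protein level.

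Of the 37 members 29 passed the size rule in no subline against its parent. Their log2 ratios ran from -0.79 (DNAJA3) to 0.65 (DNAJB4) in CTXR and from -0.87 (CRYAB) to 0.62 (DNAJB6) in DTXR. They ran from -0.86 (HSPA13) to 0.86 (HSPA12A) in CabR and from -0.85 (HSPA13) to 0.76 (HSPA8) in TaxR. Among these 29, 23 lay within 0.5 of 0 in CTXR, 25 in DTXR, 23 in CabR and 22 in TaxR. HSPA13, an HSP70 associated with the endoplasmic reticulum, was among the members below the parent in all 4 sublines. It had 45.2 FPKM in CTXR and 67.0 in DTXR, against 75.2 in DU145, and 12.9 in CabR and 13.0 in TaxR, against 24.3 in C4-2B. DNAJA1, a J-domain partner of HSC70, was among the members above the parent in all 4, with ratios of 0.09 in CTXR, 0.24 in DTXR, 0.64 in CabR and 0.70 in TaxR. The share of all measured genes with the same direction in all 4 sublines was not computed. BAG3, the stress-inducible nucleotide exchange factor of selective autophagy, lay between 18.7 and 34.2 FPKM in the 6 libraries. The other members are given by their ranges over the 6 libraries. Among nucleotide exchange factors, the HSP110 proteins HSPA4 and HSPA4L ranged from 43.7 to 128 FPKM and from 6.93 to 10.6 FPKM, and BAG1 from 30.2 to 64.7 FPKM. HSPA14, a ribosome-associated HSP70, ranged from 28.4 to 43.3 FPKM. Among the J-domain members, DNAJA3 of the mitochondrion reached 52.7 FPKM in TaxR and was lowest in CTXR, and DNAJB2 ranged from 14.4 to 32.3, DNAJB5 from 3.58 to 9.18 and DNAJB6 from 39.0 to 61.9. CHORDC1, an HSP90 partner, ranged from 18.5 to 41.2 FPKM. STIP1, which links HSP70 to HSP90, had 75.9 FPKM in CTXR and 111 in DTXR, against 103 in DU145, and 127 in CabR and 122 in TaxR, against 83.4 in C4-2B.

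**Figure D3:**
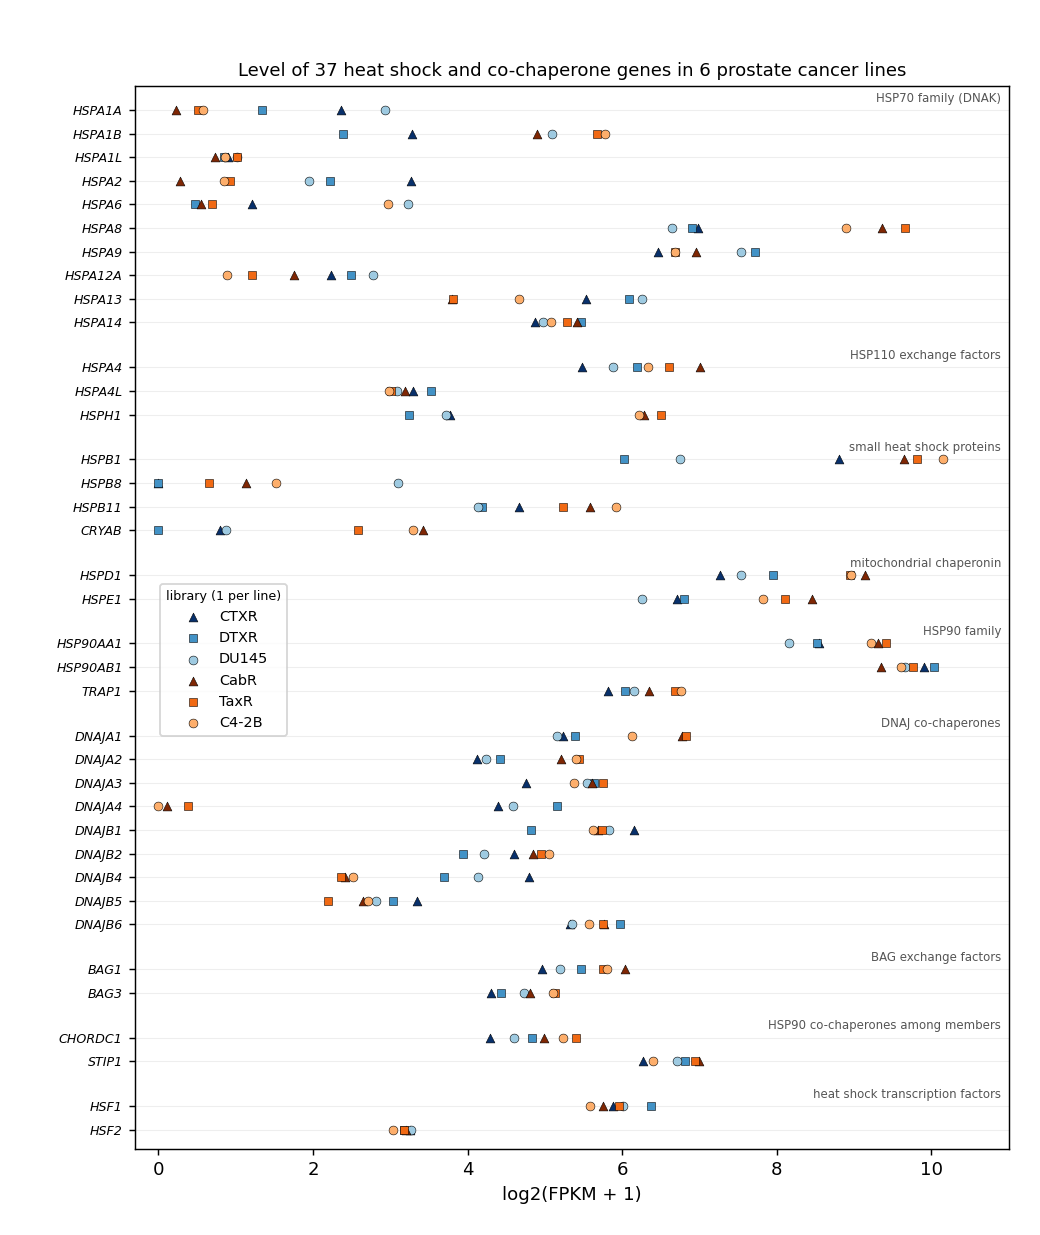
Level of the 37 members in log2(FPKM + 1) (horizontal axis), grouped by role, with 1 symbol per library: triangles for cabazitaxel-resistant, squares for docetaxel-resistant and circles for parental lines, blue for the DU145 lineage and orange for the C4-2B lineage. HSPA8, HSPH1, HSPD1 and HSPE1 separate by colour, while HSPA6 separates the circles from the other symbols.

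Over the 3 lines of each lineage, 6 members were higher and 9 lower in the DU145 lineage without overlap and by at least 1 in mean log2(FPKM + 1). That is 16.2% of the members higher, near the 15.1% of all measured genes, and 24.3% lower, beside 15.1%. Lines of a lineage derive from each other, so this is a description with no test. HSPA8 averaged 114 ± 13.6 FPKM in the DU145 lineage and 647 ± 166 in the C4-2B lineage (SD over 3 lines each). HSPH1, an HSP110 exchange factor, averaged 11.1 ± 2.33 FPKM in the DU145 lineage and 79.9 ± 8.26 in the C4-2B lineage. HSPB1, CRYAB, HSPB11, HSPD1, HSPE1, DNAJA1 and DNAJA2 were the other members lower in the DU145 lineage. DNAJA2 alone of the 9 missed the rule when the libraries were set to the same non-mitochondrial total or to median-ratio size factors.

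DNAJA4, a heat-inducible J-domain protein, was present in the DU145 lineage, with 20.04 FPKM in CTXR and 34.8 in DTXR, against 23.0 in DU145. It had 0.0821 FPKM in CabR and 0.307 in TaxR, and was listed at 0 in C4-2B. The 1.73% share of DU145-side transcripts in TaxR would amount to 0.399 FPKM of DNAJA4. HSPA13, HSPA2, HSPA1A, HSPA12A and DNAJB4 were the other members higher in the DU145 lineage. For HSPA1A this rests on the uncertain division of reads with HSPA1B. The sum of both was not higher there, at 5.76 to 39.8 FPKM, against 29.1 to 54.1 in the C4-2B lineage. Summed over the 37 members, FPKM was 2965 in CTXR and 3016 in DTXR, against 2595 in DU145, and 4854 in CabR and 5226 in TaxR, against 4822 in C4-2B. As a share of non-mitochondrial FPKM this was 0.545% to 0.616% in the DU145 lineage and 0.825% to 0.912% in the C4-2B lineage. Within a lineage the sum changed by at most 0.22 on the log2 scale.

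**Figure D4:**
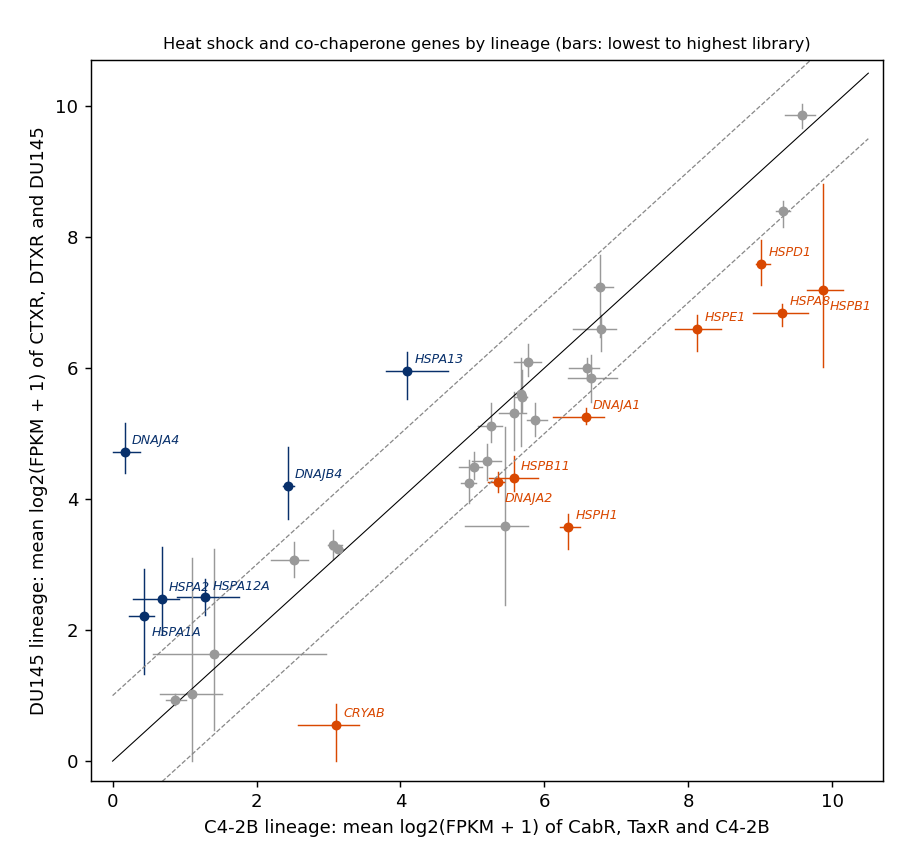
Mean log2(FPKM + 1) of the 3 DU145-lineage lines (vertical axis) against that of the 3 C4-2B-lineage lines (horizontal axis) for the 37 members, with bars from the lowest to the highest library and dashed lines at a difference of 1. The 6 members in blue are higher and the 9 in orange lower in the DU145 lineage without overlap; DNAJA4 lies farthest above the diagonal.

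The selection was made in 2 parental lines, which gives the design its only replication of a stage. A limma fit of log2(FPKM + 1) over the 6 libraries, with terms for stage and lineage, called no member and 0% of the 17436 measured genes at a Benjamini-Hochberg adjusted p under 0.05, for the docetaxel-resistant or the cabazitaxel-resistant stage against the parental one. At an unadjusted limma p under 0.05 there were 5 of 37 members for the cabazitaxel-resistant stage, beside 4.79% of all genes, namely HSPA6, HSPA13, HSPB8, HSPA1B and HSPE1. For the docetaxel-resistant stage there were 4, beside 4.43% of all genes, namely HSPA6, HSPB8, CRYAB and HSPA1B. The limma p for the cabazitaxel-resistant stage was 0.04974 for HSPA1B and 0.04996 for HSPE1, just under the threshold. HSPB8 and CRYAB were listed at 0 in DTXR, and HSPB8 also in CTXR. HSPA6 had the smallest p of the members in each stage, with a log2 change of -2.22 ± 0.36 (SE) and a limma adjusted p of 0.864 for cabazitaxel resistance. For docetaxel resistance it was -2.52 ± 0.36 with a limma adjusted p of 0.740. HSPA6 was lower in 4 of 4 sublines, but these are not independent. In each lineage 1 subline derives from the other, and both are set against the same parental library. The adjusted p does not show that HSPA6 was unchanged.

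The other chaperone genes and quality-control partners were taken as 8 groups, with 84 measured of 86 listed. In CTXR against DU145, 2 were higher and 1 lower, or 2.38% and 1.19%, beside 7.45% and 5.47% of all measured genes. In DTXR against DU145, 0 were higher and 1 lower (1.19%), beside 5.37% and 5.1% of all measured genes. In CabR against C4-2B, 2 were higher and 3 lower, or 2.38% and 3.57%, beside 2.67% and 6.2%. In TaxR against C4-2B, 0 were higher and 2 lower (2.38%), beside 2.52% and 5.64%. None of the 8 measured subunits of the TRiC chaperonin, which folds actin and tubulin, was called in any comparison. Their medians were -0.06 in CTXR, 0.19 in DTXR, 0.42 in CabR and 0.36 in TaxR. The prefoldin subunits, which hand clients to TRiC, were not called against a parent either, with medians of 0.32 in CTXR, 0.22 in DTXR, 0.26 in CabR and 0.20 in TaxR. Nor was any of the 8 other nucleotide exchange factors, with medians of -0.21 in CTXR, 0.04 in DTXR, 0.06 in CabR and -0.03 in TaxR.

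Among the 13 measured HSP90 co-chaperones outside the members, FKBP5 was the one called against a parent, with 61.3 FPKM in CabR and 144 in TaxR, against 160 in C4-2B. FKBP5 is an immunophilin that binds HSP90. Chaperones of the endoplasmic reticulum had medians of -0.54 in CabR and -0.55 in TaxR, against 0.01 in CTXR and 0.15 in DTXR. HSP90B1, GRP94, had 436 FPKM in CabR and 360 in TaxR, against 724 in C4-2B, and was lower by the rule in TaxR. SERPINH1, the collagen chaperone HSP47 and a known heat-inducible gene, was higher in CabR and lower in DTXR, with 19.9 FPKM in CabR and 6.29 in TaxR, against 8.55 in C4-2B, and 51.0 in CTXR and 34.6 in DTXR, against 100.2 in DU145. SDF2L1 was higher in CTXR, at 91.0 FPKM against 34.6 in DU145.

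Of 19 other J-domain genes, DNAJC15 was higher in CTXR, DNAJC2 higher in CabR, and DNAJC18 lower in CabR and TaxR, with no other call against a parent. HSF4, a heat shock factor known from the lens, was lower in CabR, with 24.7 FPKM in CabR and 30.6 in TaxR, against 57.8 in C4-2B. Of 13 ubiquitin and proteasome genes SQSTM1, the autophagy receptor p62, was lower in CTXR, with 222 FPKM in CTXR and 621 in DTXR, against 555 in DU145.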

How the data were processed

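Stranded mRNA libraries made from total RNA were sequenced by the authors, 1 per line, per the labels' protocols. Alignment and quantification tools listed by the submitters' processing notes are HISAT, StringTie and Cuffnorm, with GRCh38 as the build. The sources used here give no versions, gene annotation, strand use in counting or scaling between libraries. The authors deposited FPKM for 60658 Ensembl identifiers per library, per the file headers, so no count model was fitted, depth is unknown and a listed 0 may stand for an estimate that failed. Reads of paralogs and pseudogenes were divided by the authors' software. Of the identifiers 56550 were named from a symbol table and 57047 were in GENCODE release 29 (GRCh38).

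Groups were taken from the labels, and the title of TaxR also carries the unexplained word old. Values were compared as log2(FPKM + 1) among 17436 genes reaching 1 FPKM in a library, with calls at a ratio of at least 1 in size. The limma fit used stage and lineage, an intensity trend and Benjamini-Hochberg adjustment over all measured genes. The members, their classes and the other lists were chosen with earlier results of these data known. All members are accounted for, full values were given for those past the size rule in a subline, the 5 most abundant and the heat shock factors, and of the other lists up to 4 genes past the rule. The 5 genes most like the heat-inducible mean were taken from protein-coding genes, a limit added to the rule. Further members were named after their values were seen. Alternatives were another pseudocount, no low-value filter, 3 rescalings, summing HSPA1A, HSPA1B and HSPA1L, removing the DU145 share from TaxR, and variants of the limma fit. The comparison of lineages, protein-coding genes only and an interaction fit were added after seeing the data. The limma fits were tested on simulated data of 17436 genes. Of 100 genes changed by 2 on the log2 scale, 10 were recovered for the docetaxel-resistant and 14 for the cabazitaxel-resistant stage. Of 100 changed by 4, 45 and 54 were recovered. The interaction fit recovered 0 of 100 at either size. Most changes of these sizes would thus be missed at a log2 change of 2, and all in the interaction fit. Shared transcript windows of 75 bases come from GENCODE transcripts, promoters from RefSeq (GRCh38.p14), listed for 34 members. Python 3.11.15, numpy 2.4.6, pandas 2.3.3, matplotlib 3.10.9, R 4.3.3 and limma 3.58.1 were used. One lineage marker is not reported here.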

Additional observations from a re-analysis of the deposited data

Results flagged for a closer look

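HSPA12A, a distant relative of HSP70, lay below the parent in both DU145 sublines and above it in both C4-2B sublines. Its log2 ratio to the parent was -0.55 in CTXR and -0.29 in DTXR, and 0.86 in CabR and 0.32 in TaxR. It had 3.70 FPKM in CTXR and 4.60 in DTXR, against 5.87 in DU145, and 2.37 in CabR and 1.32 in TaxR, against 0.854 in C4-2B. None of these ratios passed the size rule. HSPA12A was picked as the member with opposite signs in the lineages and all its ratios at least 0.25 in size. HSPB11, DNAJB5 and HSF2 also had opposite signs in the lineages, with some ratios under that size. The share of all measured genes with such a pattern was not computed. Since HSPA12A was picked for its pattern, no p is given for the difference between the lineages. A limma fit of the interaction of resistance with lineage, which takes the 2 sublines of a lineage as replicates, called no member and 0% of all 17436 genes at an adjusted p under 0.05, beside 1 member, HSPB8, and 9.52% of all genes at an unadjusted one. With so few libraries the lack of calls says nothing about whether the lineages differ.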

How the results depend on the processing

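With a pseudocount of 0.1 the count of members was 8 higher in CTXR against DTXR, 1 higher and 3 lower in CabR and 1 higher and 2 lower in TaxR, each against C4-2B, and 2 lower in CabR against TaxR. With the same non-mitochondrial total the member median in CTXR against DU145 was -0.24, where the median of all genes was -0.08. In that setting 3 members were higher in CTXR against DTXR, HSPA1A and HSPA2 missing the size rule at 0.97 and 0.96. The shares of all measured genes past the size rule in these 2 settings were not computed, so the counts are no result about the members. The other 163 alternative values of counts and medians stayed within 1.5 times the count or 0.1 of the median, and the other 128 values of single called members kept direction and call. Part of them could not differ, since all 37 members were measured and are protein-coding. Dropping the low-value filter or keeping protein-coding genes only thus repeats the members' ratios, counts and medians under the size rule. Summing HSPA1A, HSPA1B and HSPA1L leaves the ratios of the other members as they were. The limma counts of members were 0 with each library left out in turn (0 to 0) and in every other variant run, which says nothing about stability in so small a design. Leaving out a library leaves 1 line in a stage, which is then assumed to vary like the others. The labels give no replicate numbers to pair by, and the lineage term of the fit sets each subline against its own parent. Without that term the count of members was 0 for both stages. Over these variants the limma adjusted p of HSPA6 lay between 0.599 and 1 for the cabazitaxel-resistant and between 0.642 and 1 for the docetaxel-resistant stage. Depth is unknown and each line has 1 library, so a difference between lines cannot be told apart from one between cultures or preparations.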

Other observations

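The mean log2(FPKM + 1) of the 18 heat-inducible members was 4.53 in CTXR and 4.19 in DTXR, against 4.80 in DU145, and 4.89 in CabR and 4.93 in TaxR, against 5.03 in C4-2B. The coding genes outside the list whose pattern over the 6 libraries was most like this mean were EFNB1, H2AC25, ARHGEF4, OXTR and SCAP, at Pearson r of 0.999 to 0.987. This is a description over 6 points that share their lineage and library. SCAP, the sterol sensor, had 34.5 FPKM in CTXR and 28.8 in DTXR, against 49.1 in DU145, and 49.6 in CabR and 50.6 in TaxR, against 55.9 in C4-2B.

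The HSPD1 level was 1.47 times that of its partner HSPE1 in CTXR and 2.23 times in DTXR, against 2.45 times in DU145, and 1.60 times in CabR and 1.79 times in TaxR, against 2.21 times in C4-2B. The ratio of FPKM was thus lowest in the cabazitaxel-resistant line of each lineage and highest in the parent. How often other pairs of genes show this order was not computed. Other genes share 9.13% of the 75-base windows of HSPE1 transcripts and 5.19% of those of HSPD1. The HSPA8 level was 9.70 times the sum of HSPA1A and HSPA1B in CTXR and 20.6 times in DTXR, against 2.48 times in DU145, and 22.6 times in CabR and 15.9 times in TaxR, against 8.79 times in C4-2B. All 4 sublines lay above their parent in this ratio of constitutive to inducible HSP70, but its 2 parts contributed unequally. The log2 ratio of the sum of HSPA1A and HSPA1B was -1.56 in CTXR, -2.59 in DTXR, -0.88 in CabR and -0.09 in TaxR. That of HSPA8 was 0.33 in CTXR, 0.26 in DTXR, 0.46 in CabR and 0.76 in TaxR.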
